A study of Homo sapiens with 16 samples.

Results

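The RAB small GTPases are the largest branch of the RAS superfamily, and 44 RAB mRNAs are described here across control and ALKBH5 knockdown THP-1 cells. Members were all genes of the deposited table whose symbol was RAB followed by a number and at most 1 letter and whose abundance was at least 1 in CPM, the reads of a gene scaled to library size. The rule used no conversion rate. It took 44 of 63 RAB symbols, out of 60564 genes in the table, and all 44 were among the 16241 genes tested. Each RAB protein cycles between a GTP-bound form on a membrane and a GDP-bound form that is extracted into the cytosol. Guanine nucleotide exchange factors (GEFs) switch a RAB on, GTPase-activating proteins (GAPs) switch it off, and the active form recruits effectors such as tethers and motor adaptors. Different RABs mark different compartments, and in monocytic cells they carry phagosome maturation, granule release and receptor recycling.

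THP-1 is an established human monocytic leukaemia line. SLAM-seq marks new RNA with 4-thiouridine (4sU), which is read as T-to-C conversions. A pulse of 1 h with 100 µM 4sU was followed by a chase in 10 mM uridine, and polyadenylated RNA was taken after 0, 1.5, 4.5 or 7.5 h of chase and sequenced. The 16 libraries formed 8 groups of 2 replicates: wild-type THP-1 cells, labelled control, and cells with ALKBH5 knocked down, at each of the 4 times. All groups shared the line, the medium, the pulse and the chase. The sources used here name neither the knockdown reagent nor a clone. They do not state that replicates were separate cultures, and the p-values measure only the spread between these libraries, which may be technical. ALKBH5 is an enzyme that removes the methyl mark m6A from adenosine in RNA. The conversion rate of a gene is taken as the share of its sequenced T bases that read as C, in percent. A rate is not an abundance: by the design of the assay it falls during the chase both when labelled RNA is lost and when unlabelled RNA is added.

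The library medians of all tested genes ran from 0.250% to 0.556% in control and from 0.532% to 1.19% in knockdown, and knockdown medians were higher at every time. The depth behind a rate is unknown, and 2.39% to 12.9% of tested genes were listed at 0 per library. Replicates agreed across genes with Spearman correlations of 0.359 to 0.739. Before the chase the 2 control libraries gave ALKBH5 a rate of 0.386% and 0.812% and the 2 knockdown libraries 2.46% and 3.31%, which does not test its abundance. In the single CPM column, whose library is not named, monocytic markers were present (LYZ at a CPM of 1280, SPI1 at 48.4, CD33 at 29.8), while MPO and KIT were at 0.185 and 0.159. Among markers of other lineages HBB, HBA1, CD79A and MS4A1 were at 0, while CDH1 and PAX8 were at 2.88 and 2.30.

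RAB mRNAs carried more label in knockdown than in control, by about as much as other genes. Before the chase the median rate was 0.584% for the 44 members and 0.58% for all genes in control, and 1.34% and 1.22% in knockdown. After 7.5 h it was 0.294% for members and 0.266% for all genes in control, and 0.585% and 0.552% in knockdown. Averaged over the chase, 35 of 44 members (79.5%) were higher in knockdown by limma at an adjusted p under 0.05, and the background was 69.6% of all tested genes. No member was lower, against 0.172% of genes. The members' median difference was 1.10 log2 units on the log2(rate + 0.05) scale and that of all genes was 1.02. All 35 calls were kept whichever single library was left out.

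The separation of the genotypes was visible library by library. At 0 h both knockdown libraries lay above both control libraries in 38 of 44 members (86.4%), with a background of 71.1% of genes. The count was 36 members (81.8%) at 1.5 h, 38 (86.4%) at 4.5 h and 31 (70.5%) at 7.5 h, with backgrounds of 74.3%, 68.2% and 58.9%. Tested at 0 h alone, 20 members (45.5%) were higher in knockdown, against 35.6% of genes, and 0 were lower, against 0.179%. At 7.5 h, 19 (43.2%) were higher, against 33.5%, and 0 were lower, against 0.308%. These single-time tests rest on 2 libraries a group: 8 of the 20 calls at 0 h and 5 of the 19 at 7.5 h were kept whichever library was left out. Without knockdown 0 h replicate 1 the count at 0 h was 10, and without control 0 h replicate 1 it was 13. Without either knockdown library at 7.5 h the count at that time was 11.

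**Figure D1:**
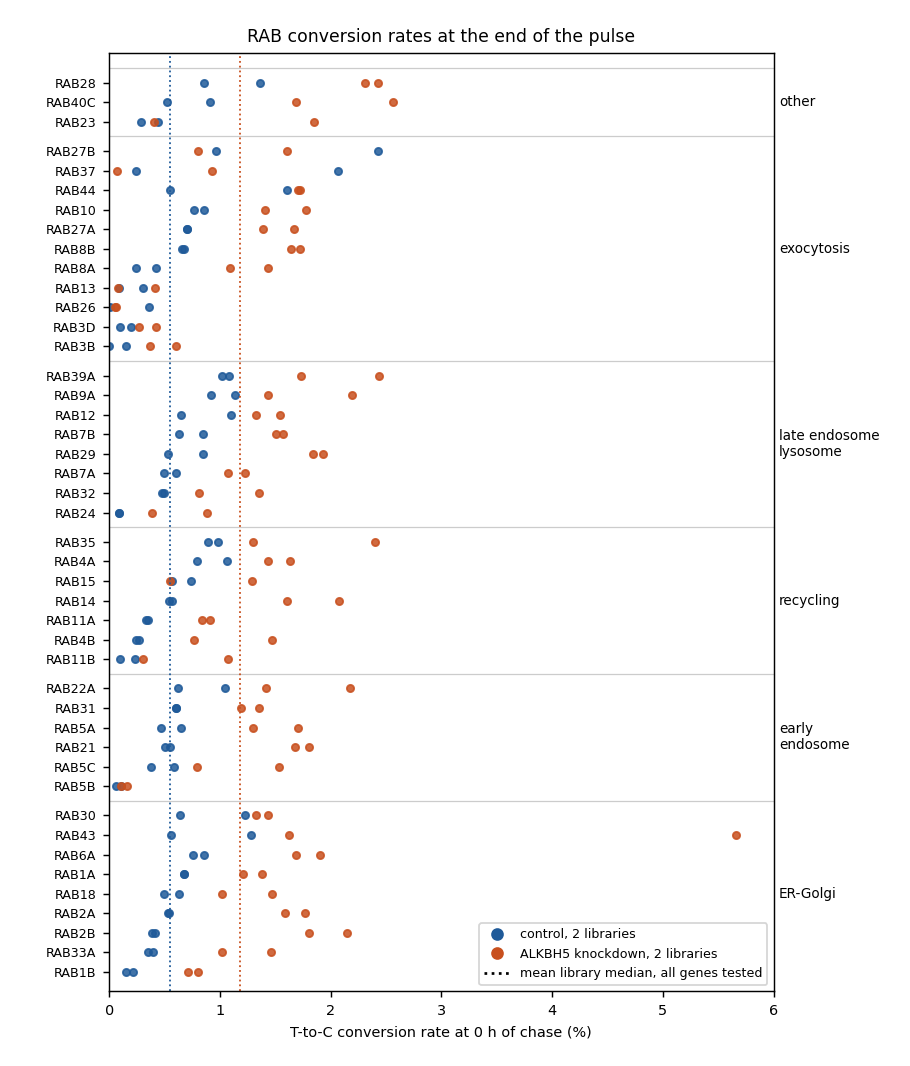
Conversion rates in percent (horizontal axis) of the 44 RAB mRNAs (vertical axis, grouped by compartment) at the end of the pulse, 1 point per library, 2 control and 2 knockdown libraries; dotted lines are the mean library medians of all tested genes. In 38 members both knockdown points lie right of both control points, and RAB5B, RAB3D, RAB13 and RAB26 sit far left of the medians in both genotypes.

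Over the chase, RAB rates fell in a graded way, from steep falls in members of several compartments to none in a few. In control, 20 members (45.5%) fell, against 34.4% of all genes tested, and 1 (2.27%), RAB4B, rose, against 3.45%. In knockdown, 22 (50%) fell, against 37.9%, and 0 rose, against 4.06%. The median slope of the members was −0.125 log2 per hour in control and −0.163 in knockdown, and −0.109 and −0.129 over all genes. The members' median CPM was 12.8 and that of all tested genes 9.66, and whether this difference in abundance moved the shares was not tested. The falling sets shared 17 members, which is 85% of the control set and 77.3% of the knockdown set. Across the 44 members the slopes of the 2 genotypes correlated with Pearson's r of 0.683 and Spearman's rho of 0.722, against 0.518 and 0.607 over all genes. These points share no library between genotypes but share gene length, base composition and abundance. By 7.5 h the median member kept 56.2% of its 0 h rate in control (54.9% for all genes) and 50.3% in knockdown (51.1% for all genes).

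Slopes were also taken relative to the typical gene, by centring each library on its median log2 rate. Centring removed −0.136 log2 per hour from each control slope and −0.150 from each knockdown slope. The typical gene or slope here means this trend of the library medians, not the median of the gene slopes. The median centred slope over all genes was 0.0265 in control and 0.0208 in knockdown. A positive centred slope thus lies above the typical slope, and can be a shallower fall, a flat rate or a rise. In control, 5 members (11.4%) lay above the typical slope, against 17.6% of genes, and 4 (9.09%) fell more steeply, against 9.46%. The 5 included RAB4B, the member whose uncentred slope rose. In knockdown, 6 (13.6%) lay above it, against 17.7%, and 3 (6.82%) fell more steeply, against 8.62%. RAB11A and RAB1B lay above the typical slope in both genotypes, which is 40% of the control set and 33.3% of the knockdown set. RAB9A and RAB28 were in both steep sets, which is 50% and 66.7% of them.

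**Figure D2:**
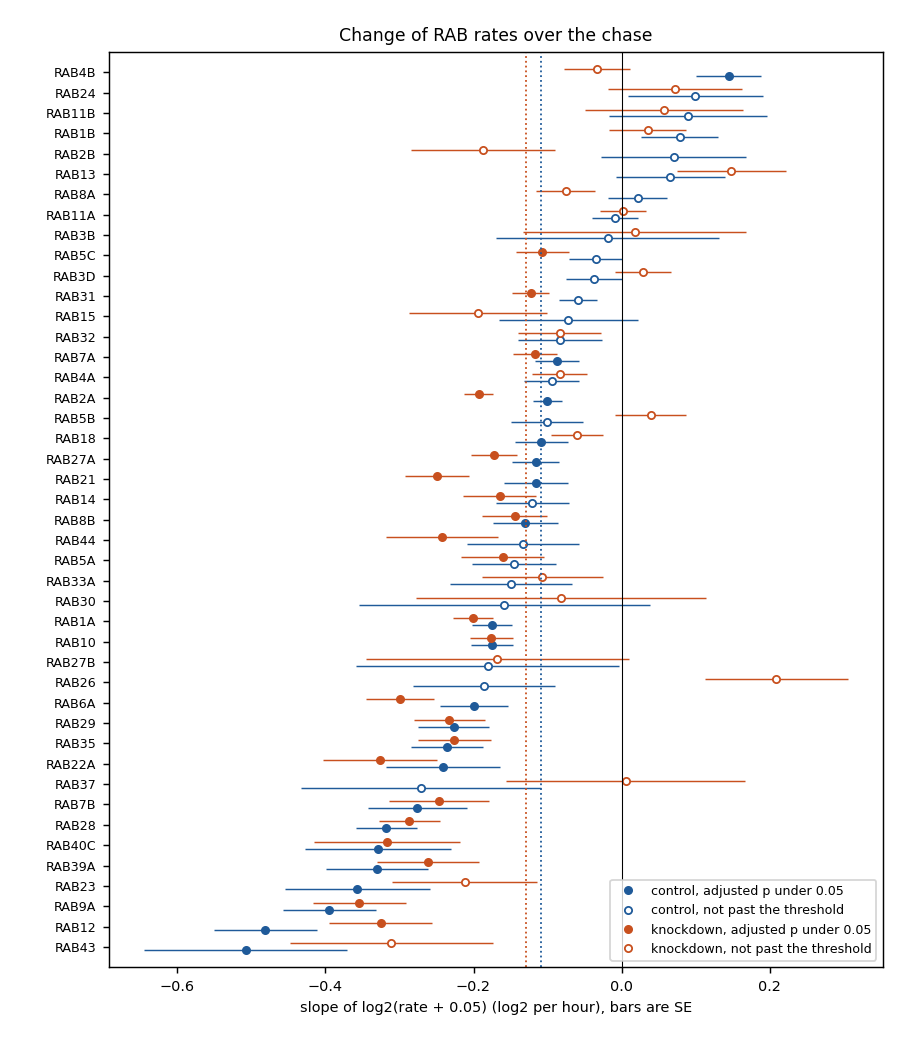
Slope of log2(rate + 0.05) in log2 per hour (horizontal axis) with its SE for each of the 44 members (vertical axis), in control and knockdown; filled points passed an adjusted p of 0.05 and dotted lines are the medians of all genes. RAB12 and RAB43 lie lowest in control, at −0.481 and −0.507, and RAB4B is the one filled point above 0.

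Late endosome and lysosome RABs mostly fell: 6 of 8 tested members fell in control, where 34.4% of all genes did, and 6 of 8 in knockdown, where 37.9% did. Their median slope was −0.251 log2 per hour in control and −0.239 in knockdown, against −0.109 and −0.129 over all genes. Relative to the typical gene, 3 of the 8 fell more in control and 1 in knockdown, against 9.46% and 8.62% of genes. The compartment lists were chosen with earlier results of these data known, so their counts are a description only. Falls in control were also frequent in other lists, such as 18 of 31 GAP genes and 26 of 46 effectors. They were rarer in others, such as 1 of 7 recycling endosome RABs. RAB7A, which drives late endosome to lysosome fusion, was the most abundant late endosome and lysosome member at a CPM of 81.1. RAB7A rates in control were 0.606% and 0.494% before the chase, 0.323% and 0.43% after 1.5 h, 0.247% and 0.308% after 4.5 h, and 0.273% and 0.373% after 7.5 h. In knockdown, RAB7A rates were 1.23% and 1.07% before the chase, 0.997% and 1.02% after 1.5 h, 0.77% and 0.815% after 4.5 h, and 0.503% and 0.711% after 7.5 h. Its libraries at 4.5 and 7.5 h overlapped in control but all lay below both 0 h libraries, and every knockdown library lay above every control library at the same time. The slope was −0.0874 log2 per hour (SE 0.0298, adjusted p = 0.0295) in control and −0.117 log2 per hour (SE 0.0298, adjusted p = 0.00488) in knockdown. The control call ended without control 0 h replicate 1, control 0 h replicate 2 or control 7.5 h replicate 1, over a range of −0.125 to −0.0617.

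RAB12, which directs transferrin receptor to lysosomes, had the steepest fall in rate of this group in control. RAB12 rates in control were 1.1% and 0.645% before the chase, 0.517% and 0.63% after 1.5 h, 0.225% and 0.305% after 4.5 h, and 0.0454% and 0% after 7.5 h. In knockdown, RAB12 rates were 1.54% and 1.32% before the chase, 0.953% and 0.893% after 1.5 h, 0.767% and 1.09% after 4.5 h, and 0.113% and 0.256% after 7.5 h. Both control libraries at 7.5 h were at or near 0, and the knockdown libraries at 7.5 h lay below all earlier ones. The slope was −0.481 log2 per hour (SE 0.0696, adjusted p = 6.29e-05) in control, a halving time of 2.08 h on the log2 fit, and −0.325 log2 per hour (SE 0.0696, adjusted p = 0.00138) in knockdown, 3.07 h. Relative to the typical gene RAB12 fell by 0.35 log2 per hour more in control (adjusted p = 0.00201), a call kept without any single library, and its centred knockdown slope was −0.175 (adjusted p = 0.0845).

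RAB9A, which serves the return of mannose 6-phosphate receptors from late endosomes to the Golgi, fell in both genotypes. RAB9A rates in control were 1.14% and 0.916% before the chase, 0.398% and 1.0% after 1.5 h, 0.399% and 0.196% after 4.5 h, and 0.0504% and 0.128% after 7.5 h. In knockdown, RAB9A rates were 1.43% and 2.19% before the chase, 1.02% and 1.09% after 1.5 h, 0.543% and 0.715% after 4.5 h, and 0.383% and 0.112% after 7.5 h. The rates at 7.5 h were the lowest of the chase in each genotype, and the knockdown pair at that time was spread widely. Its mean rate at 7.5 h was 8.67% of that at 0 h in control and 13.6% in knockdown. The slope was −0.394 log2 per hour (SE 0.063, adjusted p = 1.50e-04) in control and −0.354 log2 per hour (SE 0.063, adjusted p = 3.17e-04) in knockdown. Centred, it was −0.259 (adjusted p = 0.00694) and −0.204 (adjusted p = 0.0272). The control call ended without control 7.5 h replicate 1 (−0.21, adjusted p = 0.0530) and the knockdown call without knockdown 0 h replicate 2 (−0.18, adjusted p = 0.105) or 7.5 h replicate 2 (−0.12, adjusted p = 0.224).

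RAB39A, a phagosome and lysosome RAB, also fell in both genotypes. RAB39A rates in control were 1.09% and 1.02% before the chase, 0.497% and 0.363% after 1.5 h, 0.163% and 0.201% after 4.5 h, and 0.116% and 0.15% after 7.5 h. In knockdown, RAB39A rates were 1.74% and 2.44% before the chase, 1.47% and 0.976% after 1.5 h, 0.672% and 0.287% after 4.5 h, and 0.59% and 0.468% after 7.5 h. Both 0 h libraries of each genotype lay above all later ones, and the knockdown libraries at 4.5 and 7.5 h overlapped. Its slope was −0.33 log2 per hour (SE 0.0691, adjusted p = 0.00138) in control and −0.261 log2 per hour (SE 0.0691, adjusted p = 0.0063) in knockdown. The centred control slope, −0.195 (adjusted p = 0.0444), lost its call without any of 11 libraries, with adjusted p values up to 0.148.

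RAB29, which recruits the kinase LRRK2 to membranes, fell in both genotypes. RAB29 rates in control were 0.529% and 0.845% before the chase, 0.61% and 0.511% after 1.5 h, 0.306% and 0.353% after 4.5 h, and 0.0846% and 0.325% after 7.5 h. In knockdown, RAB29 rates were 1.93% and 1.84% before the chase, 2.29% and 1.88% after 1.5 h, 1.07% and 1.15% after 4.5 h, and 0.683% and 0.501% after 7.5 h. The knockdown libraries at 1.5 h overlapped those at 0 h, and the genotypes did not overlap at any time. Its slopes were −0.227 log2 per hour (SE 0.0477, adjusted p = 0.00146) and −0.232 log2 per hour (SE 0.0477, adjusted p = 0.00102). RAB7B, a late endosome to Golgi RAB, fell by 0.276 log2 per hour in control and by 0.246 in knockdown, calls that ended without control 7.5 h replicate 2 (adjusted p = 0.0538) and knockdown 7.5 h replicate 1 (adjusted p = 0.0580). RAB32, of lysosome-related organelles, and RAB24, linked to autophagy, did not pass in either genotype, with control slopes of −0.0833 and 0.0995. RAB24 overlaps the gene MXD3 on the same strand.

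The TATTTAT letters, the core of AU-rich elements that bind RNA decay factors, were looked for in the 3′ UTRs because the falls differ among members. They were read on the transcript strand of 1 GENCODE 29 transcript a gene (GRCh38, the hg38 build), and each holds the shorter ATTTA. The sites nearest the stop codon are printed here for RAB12, RAB39A and RAB6A, which fell by over the typical slope in at least 1 genotype, and for RAB11A, whose slopes did not pass. Capitals mark TATTTAT.
RAB12 (chr18:8638793-8638815, + strand, 538 bases after the stop): tggaaggtTATTTATtaatgtta
RAB39A (chr11:107963426-107963448, + strand, 1061 bases after): acaaaattTATTTATgtattgac
RAB6A (chr11:73677692-73677714, − strand, 191 bases after): gtcttcatTATTTATattttaca
RAB11A (chr15:65890667-65890689, + strand, 2834 bases after): ctgactggTATTTATaaaataca

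The members printed are examples, and slopes of members with and without TATTTAT were not compared. TATTTAT occurred in the 3′ UTR of 21 members (47.7%), against 31.9% of 12330 genes with such a transcript, but the members' 3′ UTRs were longer, with a median of 2130 bases against 1029. In a window of equal length, the first 500 bases after the stop, 7 of 38 members (18.4%) and 12.9% of 8506 genes held it. Among members that fell steeply, RAB9A and RAB28 had no TATTTAT, while RAB12 and RAB39A had it. Whether the motif goes with the slopes was not tested. The density of ATTTA in the 3′ UTR correlated with the control slope across members with Pearson's r of −0.234 and Spearman's rho of −0.225, and with the knockdown slope with −0.251 and −0.212 (n = 44 genes). A correlation of that size is given as a description only.

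The ER and Golgi RABs split within the group: 5 of 9 fell in control and 3 of 9 in knockdown, with backgrounds of 34.4% and 37.9% of all tested genes. RAB2A, which acts between the Golgi and the ER, was the most abundant member of all at a CPM of 240.4. RAB2A rates in control were 0.538% and 0.531% before the chase, 0.565% and 0.436% after 1.5 h, 0.451% and 0.373% after 4.5 h, and 0.293% and 0.299% after 7.5 h. In knockdown, RAB2A rates were 1.76% and 1.58% before the chase, 1.36% and 1.36% after 1.5 h, 1.12% and 0.993% after 4.5 h, and 0.59% and 0.523% after 7.5 h. The genotypes did not overlap at any time, and each knockdown pair lay below the pair before it. The slope was −0.10 log2 per hour (SE 0.0193, adjusted p = 7.38e-04) in control and −0.193 log2 per hour (SE 0.0193, adjusted p = 1.71e-06) in knockdown, a halving time of 9.97 h against 5.18 h. RAB1A, the main ER-to-Golgi RAB, fell in both genotypes, by 0.175 log2 per hour in control and by 0.201 in knockdown, while its paralogue RAB1B did not pass in either.

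RAB6A, a Golgi RAB for traffic back to the ER, fell steeply by 1.5 h. RAB6A rates in control were 0.754% and 0.859% before the chase, 0.31% and 0.493% after 1.5 h, 0.283% and 0.157% after 4.5 h, and 0.297% and 0.188% after 7.5 h. In knockdown, RAB6A rates were 1.68% and 1.91% before the chase, 1.05% and 1.13% after 1.5 h, 0.732% and 0.755% after 4.5 h, and 0.301% and 0.303% after 7.5 h. In control both 4.5 h libraries lay below both 1.5 h libraries and overlapped those at 7.5 h, and in knockdown each pair lay below the pair before it. Its slope was −0.20 log2 per hour (SE 0.0462, adjusted p = 0.00287) and −0.299 log2 per hour (SE 0.0462, adjusted p = 9.31e-05). Centred, the knockdown slope was −0.149 (adjusted p = 0.0244), a call lost without any of the 4 knockdown libraries at 0 and 7.5 h, with adjusted p values of 0.0644 to 0.0910. RAB18, a RAB of the ER and lipid droplets, fell by 0.109 in control, a call lost without control 0 h replicate 1 or 7.5 h replicate 1 (adjusted p up to 0.0583), and its knockdown slope was −0.0602. RAB43, with a control slope of −0.507 and an SE of 0.137, was listed at 0 in 3 of 8 control libraries and overlaps the read-through gene ISY1-RAB43.

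Of 6 early endosome RABs, 2 fell in control, near the background of 34.4% of genes, and 5 in knockdown, where the background was 37.9%. No slope difference between genotypes passed. RAB31, a RAB of the early endosome and the trans-Golgi network, was the second most abundant member. RAB31 rates in control were 0.603% and 0.607% before the chase, 0.511% and 0.42% after 1.5 h, 0.31% and 0.413% after 4.5 h, and 0.472% and 0.391% after 7.5 h. In knockdown, RAB31 rates were 1.35% and 1.19% before the chase, 0.963% and 1.08% after 1.5 h, 0.752% and 0.856% after 4.5 h, and 0.668% and 0.594% after 7.5 h. In control the 7.5 h libraries lay inside the range of the 1.5 and 4.5 h libraries, and in knockdown they were the lowest of the chase. Its slope was −0.0591 log2 per hour (SE 0.0254, adjusted p = 0.0793) in control and −0.123 log2 per hour (SE 0.0254, adjusted p = 0.00108) in knockdown. Centred, it fell less than typical in control by 0.0764 (adjusted p = 0.0282), a call lost without control 1.5 h replicate 2, control 7.5 h replicate 1 or control 7.5 h replicate 2 (adjusted p up to 0.186).

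RAB21, which moves integrins, fell in both genotypes. RAB21 rates in control were 0.502% and 0.55% before the chase, 0.599% and 0.546% after 1.5 h, 0.456% and 0.265% after 4.5 h, and 0.371% and 0.232% after 7.5 h. In knockdown, RAB21 rates were 1.68% and 1.8% before the chase, 1.2% and 1.42% after 1.5 h, 1.01% and 0.916% after 4.5 h, and 0.426% and 0.391% after 7.5 h. The 2 knockdown libraries at 7.5 h lay within the range of the control libraries of 4.5 h, and below all earlier knockdown ones. Its slope was −0.116 log2 per hour (SE 0.0431, adjusted p = 0.0432) in control, lost without any of 11 libraries (adjusted p up to 0.183), and −0.249 log2 per hour (SE 0.0431, adjusted p = 2.44e-04) in knockdown. RAB22A, of early endosome sorting, fell by 0.241 and by 0.326, the control call being lost without control 0 h replicate 2 or 7.5 h replicate 2 (adjusted p up to 0.0958).

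RAB5A and RAB5C, both early endosome fusion RABs, fell in knockdown by 0.161 (adjusted p = 0.0305) and by 0.107 (adjusted p = 0.0243). The RAB5A call was lost without knockdown 0 h replicate 1, 1.5 h replicate 1 or 7.5 h replicate 2 (adjusted p up to 0.216), and the RAB5C call without knockdown 0 h replicate 1 or 7.5 h replicate 1 (adjusted p up to 0.128).

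RAB5B, 1 of 3 copies of the RAB that fuses early endosomes, stood apart by its low label. RAB5B rates in control were 0.107% and 0.0611% before the chase, 0.119% and 0.0423% after 1.5 h, 0.0973% and 0.0418% after 4.5 h, and 0.0169% and 0.0364% after 7.5 h. In knockdown, RAB5B rates were 0.109% and 0.157% before the chase, 0.273% and 0.238% after 1.5 h, 0.125% and 0.192% after 4.5 h, and 0.333% and 0.149% after 7.5 h. All 8 control libraries were under 0.12% and the highest knockdown library, at 7.5 h, was 0.333%. Its CPM of 64.7 was above that of RAB5A at 23.1 and RAB5C at 51.4. Neither slope passed, with −0.101 log2 per hour (SE 0.0483, adjusted p = 0.115) in control and 0.0391 log2 per hour (SE 0.0483, adjusted p = 0.553) in knockdown. Centred, the RAB5B slope in knockdown lay 0.189 above typical (adjusted p = 0.00773), a call lost without knockdown 7.5 h replicate 1 (0.14, adjusted p = 0.0830).

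Among recycling endosome RABs, 1 of 7 fell in control (RAB35), 1 rose (RAB4B) and 2 fell in knockdown (RAB14 and RAB35). The backgrounds were 34.4% of genes falling and 3.45% rising in control, and 37.9% falling in knockdown. RAB11A, the RAB of slow recycling, had a flat rate. RAB11A rates in control were 0.331% and 0.346% before the chase, 0.384% and 0.451% after 1.5 h, 0.43% and 0.433% after 4.5 h, and 0.27% and 0.397% after 7.5 h. In knockdown, RAB11A rates were 0.834% and 0.911% before the chase, 0.621% and 0.97% after 1.5 h, 1.05% and 0.904% after 4.5 h, and 0.983% and 0.67% after 7.5 h. No time stood apart in either genotype, and the knockdown libraries lay above the control ones throughout. The slope was −0.00908 log2 per hour (SE 0.0312, adjusted p = 0.854) in control and 0.00196 log2 per hour (SE 0.0312, adjusted p = 0.969) in knockdown, and the mean rate at 7.5 h was 98.6% and 94.7% of that at 0 h. Centred, the slope lay above typical by 0.127 in control (adjusted p = 0.0103) and by 0.152 in knockdown (adjusted p = 0.00291). Both calls were kept without any single library.

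RAB4B, a RAB of fast recycling, was the one member whose rate rose in control. RAB4B rates in control were 0.272% and 0.242% before the chase, 0.461% and 0.423% after 1.5 h, 0.36% and 0.604% after 4.5 h, and 0.659% and 0.716% after 7.5 h. In knockdown, RAB4B rates were 1.47% and 0.762% before the chase, 0.88% and 0.692% after 1.5 h, 1.11% and 0.951% after 4.5 h, and 1.01% and 0.576% after 7.5 h. In control both 0 h libraries were the lowest and both 7.5 h libraries the highest of the chase, while the knockdown libraries overlapped across times. The slope was 0.144 log2 per hour (SE 0.0443, adjusted p = 0.0169) in control, lost without control 0 h replicate 1, control 0 h replicate 2 or control 7.5 h replicate 2 (adjusted p up to 0.0667), and −0.0337 log2 per hour (SE 0.0443, adjusted p = 0.579) in knockdown. Centred, the control slope of 0.28 (adjusted p = 2.34e-04) kept its call without any single library. RAB4B shares its strand with the read-through genes MIA-RAB4B and RAB4B-EGLN2, and how reads over them were assigned is not given in the sources used here. RAB14, of the endosome and the Golgi, fell in knockdown by 0.165 (adjusted p = 0.0136), a call lost without knockdown 7.5 h replicate 1 (adjusted p = 0.176). RAB35, which recycles receptors to the plasma membrane, fell by 0.236 in control and by 0.226 in knockdown.

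Of 11 exocytosis and granule RABs, 3 fell in control and 4 in knockdown, counts near the backgrounds of 34.4% and 37.9% of genes. RAB27A, which docks lytic and lysosome-related granules, was the third most abundant member. RAB27A rates in control were 0.707% and 0.706% before the chase, 0.701% and 0.397% after 1.5 h, 0.446% and 0.357% after 4.5 h, and 0.429% and 0.291% after 7.5 h. In knockdown, RAB27A rates were 1.67% and 1.39% before the chase, 1.46% and 1.35% after 1.5 h, 0.796% and 0.866% after 4.5 h, and 0.789% and 0.498% after 7.5 h. The 0 h libraries were nearly equal in control, and from 4.5 h on all libraries lay below those before the chase in each genotype. Its slope was −0.116 log2 per hour (SE 0.0314, adjusted p = 0.00808) in control, lost without control 7.5 h replicate 2 (adjusted p = 0.0511), and −0.172 log2 per hour (SE 0.0314, adjusted p = 3.82e-04) in knockdown. RAB10, which carries vesicles to the plasma membrane, fell by 0.175 in control and by 0.176 in knockdown. RAB8B fell by 0.130 and by 0.145, but without control 7.5 h replicate 2 or either control library at 0 h its control call was lost, with slopes from −0.206 to −0.0692 over the libraries left out. Its knockdown call was lost without knockdown 7.5 h replicate 2 (adjusted p = 0.0948). RAB44, a large RAB of granule release, fell in knockdown by 0.242 (adjusted p = 0.0169), lost without either knockdown library at 7.5 h (adjusted p up to 0.0740).

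RAB8A, the paralogue of RAB8B that also serves the primary cilium, had its highest control rates in the middle of the chase. RAB8A rates in control were 0.419% and 0.246% before the chase, 0.635% and 0.481% after 1.5 h, 0.564% and 0.635% after 4.5 h, and 0.409% and 0.392% after 7.5 h. In knockdown, RAB8A rates were 1.43% and 1.09% before the chase, 1.25% and 1.38% after 1.5 h, 1.31% and 1.09% after 4.5 h, and 0.893% and 0.773% after 7.5 h. Both control 0 h libraries lay below all of those at 1.5 and 4.5 h and overlapped those at 7.5 h, and in knockdown the 7.5 h pair was the lowest. Its slope was 0.0219 log2 per hour (SE 0.0398, adjusted p = 0.711) in control and −0.0756 log2 per hour (SE 0.0398, adjusted p = 0.141) in knockdown, neither past the threshold. Centred, its control slope lay 0.157 above typical (adjusted p = 0.0101), a call lost without control 0 h replicate 2 (0.10, adjusted p = 0.0552).

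RAB3D, of secretory granules, had a low rate whose slope did not pass in either genotype. RAB3D rates in control were 0.0936% and 0.198% before the chase, 0.209% and 0.152% after 1.5 h, 0.208% and 0.153% after 4.5 h, and 0.111% and 0.108% after 7.5 h. In knockdown, RAB3D rates were 0.268% and 0.419% before the chase, 0.366% and 0.423% after 1.5 h, 0.301% and 0.422% after 4.5 h, and 0.422% and 0.432% after 7.5 h. The knockdown libraries lay between 0.268% and 0.432%, above every control library. Centred, its knockdown slope was 0.179 (adjusted p = 0.00253), kept without any single library. RAB3D overlaps TMEM205 on its own strand.

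RAB13, a junction and exocytosis RAB, and RAB26, of secretory granule maturation, were also low. RAB13 rates in control were 0.302% and 0.0888% before the chase, 0.177% and 0.202% after 1.5 h, 0.235% and 0.204% after 4.5 h, and 0.16% and 0.418% after 7.5 h. In knockdown, RAB13 rates were 0.416% and 0.0786% before the chase, 0.177% and 0.255% after 1.5 h, 0.749% and 0.547% after 4.5 h, and 0.271% and 0.537% after 7.5 h. The genotypes overlapped at every time but 4.5 h, and replicates of RAB13 differed up to several-fold. RAB26 rates in control were 0.0106% and 0.359% before the chase, 0.131% and 0% after 1.5 h, 0% and 0% after 4.5 h, and 0% and 0.0237% after 7.5 h. In knockdown, RAB26 rates were 0.0504% and 0.0583% before the chase, 0.030% and 0.251% after 1.5 h, 0.162% and 0.0839% after 4.5 h, and 0.256% and 0.353% after 7.5 h. RAB26 was listed at 0 in 4 of 8 control libraries and in no knockdown library. Centred, the knockdown slopes of RAB13 and RAB26 were 0.298 (adjusted p = 0.00707) and 0.359 (adjusted p = 0.00966), the latter lost without knockdown 7.5 h replicate 2 (adjusted p = 0.0561).

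The remaining RABs were few: all 3 tested, RAB23, RAB28 and RAB40C, fell in control and 2 of them, RAB28 and RAB40C, in knockdown, with backgrounds of 34.4% and 37.9% of genes. RAB28, a RAB of cilia and photoreceptors, was the clearest. RAB28 rates in control were 1.36% and 0.856% before the chase, 0.454% and 0.558% after 1.5 h, 0.311% and 0.236% after 4.5 h, and 0.165% and 0.128% after 7.5 h. In knockdown, RAB28 rates were 2.31% and 2.42% before the chase, 1.44% and 1.21% after 1.5 h, 0.53% and 0.803% after 4.5 h, and 0.482% and 0.476% after 7.5 h. Each pair lay below the pair before it in both genotypes. Its slope was −0.318 log2 per hour (SE 0.0411, adjusted p = 2.37e-05) in control and −0.286 log2 per hour (SE 0.0411, adjusted p = 4.69e-05) in knockdown, halving times of 3.15 and 3.49 h. Centred, RAB28 fell by 0.182 more than typical in control (adjusted p = 0.00438), kept without any single library, and by 0.136 in knockdown (adjusted p = 0.0247), lost without knockdown 0 h replicate 1 (−0.12, adjusted p = 0.0962) or replicate 2 (−0.11, adjusted p = 0.106). RAB40C, whose protein also carries a ubiquitin ligase box, fell by 0.328 and by 0.317. Its control call was lost without control 0 h replicate 1 or 7.5 h replicate 2 (adjusted p up to 0.0782) and its knockdown call without knockdown 0 h replicate 2 or 7.5 h replicate 2 (adjusted p up to 0.0580).

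**Figure D3:**
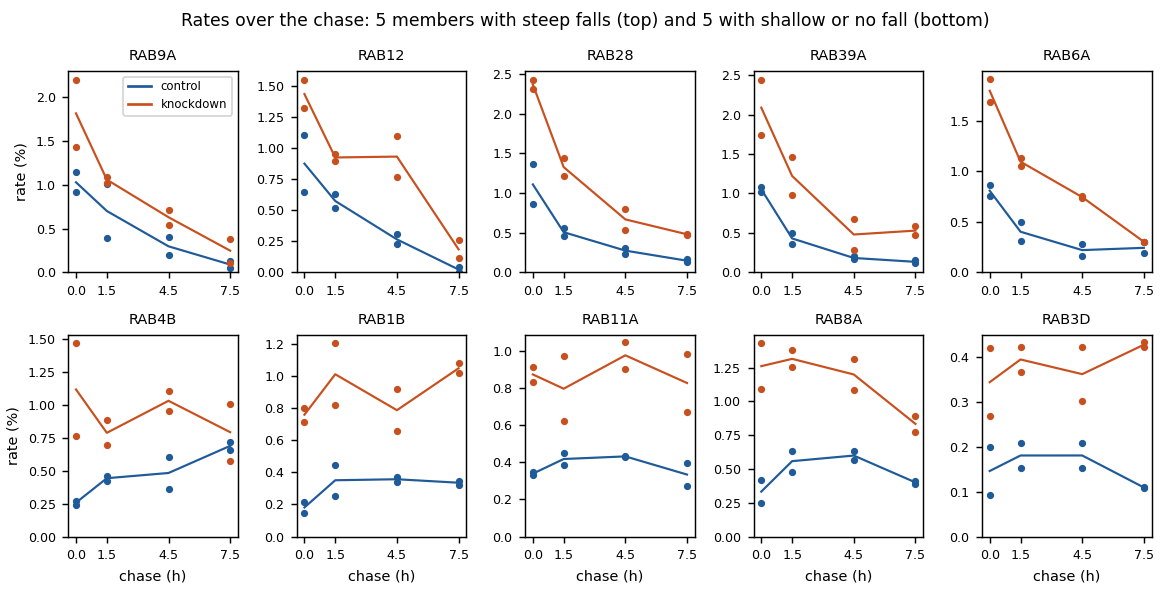
Conversion rates in percent (vertical axis) against hours of chase for 10 members, 1 point per library with lines through the group means, control and knockdown. The mean rates of the top members are lower at 7.5 h than at 0 h in both genotypes. RAB12 in control falls to 0% and 0.0454% at 7.5 h, while RAB4B in control rises from 0.242% and 0.272% to 0.659% and 0.716%.

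Relative to the common shift between genotypes, 1 RAB passed the test. After centring, which took away 1.05 log2 units, 0 members were higher in knockdown, against 1.45% of genes, and 1 (2.27%) was lower, against 4.59%. At an unadjusted p under 0.05, 3 members were higher and 1 lower. The 1 call was RAB15, a RAB of receptor recycling. RAB15 rates in control were 0.74% and 0.563% before the chase, 0.904% and 1.03% after 1.5 h, 0.418% and 0.96% after 4.5 h, and 0.544% and 0.468% after 7.5 h. In knockdown, RAB15 rates were 0.55% and 1.29% before the chase, 0.678% and 1.83% after 1.5 h, 0.0995% and 0.364% after 4.5 h, and 0.288% and 0.65% after 7.5 h. The genotypes overlapped at every time but 4.5 h, where both knockdown libraries were lower, and RAB15 did not show the general excess in knockdown. Its difference was −0.27 log2 (SE 0.352, adjusted p = 0.502), or −1.32 centred (SE 0.353, adjusted p = 0.0398). The centred call was lost without any of 12 of the 16 libraries, over −1.49 to −1.07 and adjusted p up to 0.0834, and RAB15 lies opposite CHURC1-FNTB on the other strand.

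The members next in order did not pass. RAB29 stood 0.54 above the common shift (SE 0.186, adjusted p = 0.111) and RAB2A 0.20 above (SE 0.0891, adjusted p = 0.227). RAB3B, a regulated exocytosis RAB at a CPM of 1.30, stood 1.36 above (SE 0.556, adjusted p = 0.184). RAB3B rates in control were 0% and 0.148% before the chase, 0.258% and 0.295% after 1.5 h, 0% and 0.462% after 4.5 h, and 0% and 0.316% after 7.5 h. In knockdown, RAB3B rates were 0.37% and 0.606% before the chase, 0.861% and 1.32% after 1.5 h, 1.29% and 1.82% after 4.5 h, and 0.408% and 0.746% after 7.5 h. It was listed at 0 in 3 control libraries, and both knockdown libraries were above both control ones at each time. RAB13 stood at −0.52 (SE 0.297, adjusted p = 0.368) and RAB27B, at a CPM of 1.06, at −0.97 (SE 0.554, adjusted p = 0.369). RAB27B rates in control were 0.963% and 2.42% before the chase, 2.68% and 1.75% after 1.5 h, 0% and 0.225% after 4.5 h, and 1.77% and 0.98% after 7.5 h. In knockdown, RAB27B rates were 0.806% and 1.6% before the chase, 1.88% and 1.23% after 1.5 h, 0.335% and 0.837% after 4.5 h, and 0.448% and 0.78% after 7.5 h. Replicates of RAB27B differed widely, and the genotypes overlapped at 0 and 1.5 h.

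**Figure D4:**
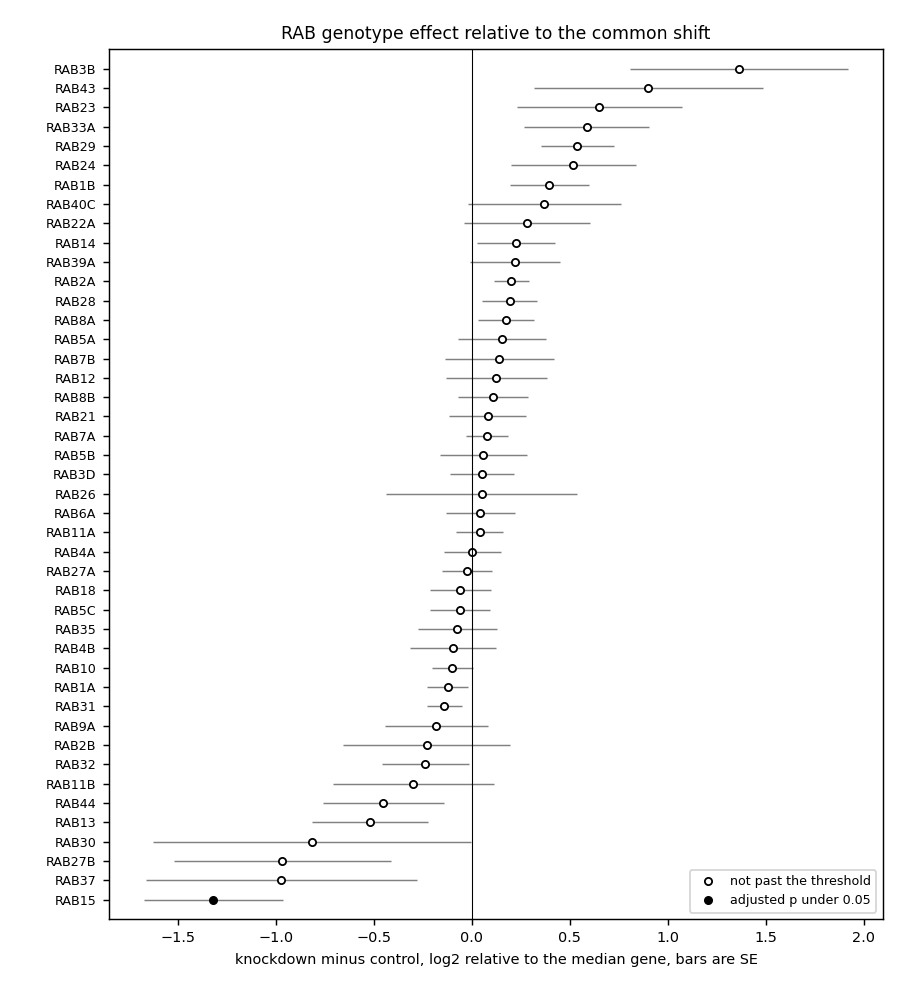
Knockdown minus control in log2 units after centring each library on its median (horizontal axis), with its SE, for the 44 members (vertical axis). RAB15 at −1.32 is the one filled point, and the widest bars belong to low-abundance members such as RAB30 and RAB37.

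No member changed its slope between genotypes by limma, and none of the 16241 genes tested did: 0 members were steeper or shallower in knockdown, with backgrounds of 0% and 0%. At an unadjusted p under 0.05, the knockdown slope lay above the control slope in 1 member and below it in 3. RAB2A had the smallest p, with a difference of −0.0927 log2 per hour (SE 0.0273, unadjusted p = 0.00370, adjusted p = 0.443). RAB4B differed by −0.178 (adjusted p = 0.505) and RAB21 by −0.133 (adjusted p = 0.621). In the other direction RAB26 differed by 0.395 (SE 0.136, adjusted p = 0.487), RAB5B by 0.140 (adjusted p = 0.657) and RAB12 by 0.156 (adjusted p = 0.746). Across members, the mean rate at 0 h in control correlated with the knockdown slope at Pearson's r of −0.744 and Spearman's rho of −0.685 (n = 44 genes): RABs with more label after the pulse had steeper knockdown slopes. The log2 rates at 0 h of the 2 genotypes correlated with each other at 0.703 and 0.655, and the knockdown 0 h libraries enter the knockdown slope, so these measures are linked through the 0 h rate. The genes also share length and base composition.

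Paralogues were compared next, since members of a numbered subfamily have closely related proteins and partly shared compartments. Every pair with the same number and a different letter was taken, 11 pairs of 19 members in 9 subfamilies. For each pair the log2 ratio of rates within a library was tested for its level by an exact two-sided sign-flip permutation over 16 libraries, and for its slope by an exact two-sided permutation of the chase times within each genotype. The p values were adjusted over the 11 pairs. The level test passed 3 pairs and the slope test 3 pairs, 1 of them by both. Pairs of unrelated genes were not run, so no background share is known and the counts do not set paralogues apart. The pairs RAB5A with RAB5B and RAB5B with RAB5C both passed the level test and share RAB5B, so they are not separate results. Reads that fit both paralogues could blur such differences, and how they were assigned is not given in the sources used here.

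RAB1A (chr2:65070696-65130331, − strand) and RAB1B (chr11:66268533-66277492, + strand) differed in how their rates moved over the chase, RAB1A falling and RAB1B passing in neither genotype. RAB1A rates in control were 0.671% and 0.674% before the chase, 0.49% and 0.549% after 1.5 h, 0.309% and 0.418% after 4.5 h, and 0.194% and 0.283% after 7.5 h. In knockdown, RAB1A rates were 1.38% and 1.21% before the chase, 1.05% and 1.35% after 1.5 h, 0.58% and 0.883% after 4.5 h, and 0.471% and 0.415% after 7.5 h. RAB1B rates in control were 0.215% and 0.147% before the chase, 0.446% and 0.255% after 1.5 h, 0.373% and 0.34% after 4.5 h, and 0.349% and 0.321% after 7.5 h. In knockdown, RAB1B rates were 0.801% and 0.716% before the chase, 1.2% and 0.818% after 1.5 h, 0.657% and 0.916% after 4.5 h, and 1.08% and 1.02% after 7.5 h. RAB1A was the higher of the pair in all 4 libraries at 0 h and the lower in all 4 at 7.5 h. The ratio of RAB1A to RAB1B fell by 0.253 log2 per hour in control and by 0.236 in knockdown, and the mean slope of −0.245 passed the exact permutation test (p = 1.39e-05, adjusted p = 1.52e-04). It stayed past the threshold without each library in turn, over −0.267 to −0.224. Averaged over the chase the levels differed by 0.19 log2 (SD 0.855, exact permutation adjusted p = 0.537), with RAB1A higher in 8 of 16 libraries.

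The 3 RAB5 genes (chr3:19947079-19985175, + strand for RAB5A, chr12:55973913-55996683, + strand for RAB5B and chr17:42124976-42155044, − strand for RAB5C) differed in level instead. RAB5A rates in control were 0.645% and 0.467% before the chase, 0.516% and 0.633% after 1.5 h, 0.548% and 0.395% after 4.5 h, and 0.485% and 0.0993% after 7.5 h. In knockdown, RAB5A rates were 1.7% and 1.29% before the chase, 1.48% and 1.14% after 1.5 h, 1.2% and 1.01% after 4.5 h, and 0.794% and 0.433% after 7.5 h. RAB5C rates in control were 0.589% and 0.38% before the chase, 0.361% and 0.365% after 1.5 h, 0.465% and 0.478% after 4.5 h, and 0.404% and 0.282% after 7.5 h. In knockdown, RAB5C rates were 1.53% and 0.79% before the chase, 0.908% and 1.2% after 1.5 h, 0.718% and 0.74% after 4.5 h, and 0.588% and 0.694% after 7.5 h. RAB5A was higher than RAB5B in 16 of 16 libraries, by a mean of 2.18 log2 (SD 0.712), and RAB5B was lower than RAB5C in all 16, by −2.00 (SD 0.581). Both had the smallest p that the exact sign-flip permutation allows, 3.05e-05 (adjusted p = 1.68e-04). RAB5A and RAB5C differed by 0.18 (exact permutation adjusted p = 0.441). The slopes of the 3 RAB5 pairs did not pass, with exact permutation adjusted p values of 0.115, 0.116 and 0.573.

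RAB4A and RAB4B differed in both measures, less firmly. RAB4A rates in control were 0.795% and 1.06% before the chase, 0.555% and 0.608% after 1.5 h, 0.496% and 0.683% after 4.5 h, and 0.543% and 0.422% after 7.5 h. In knockdown, RAB4A rates were 1.44% and 1.63% before the chase, 1.78% and 1.5% after 1.5 h, 1.56% and 1.05% after 4.5 h, and 0.947% and 1.09% after 7.5 h. At 0 h RAB4A lay above RAB4B in 3 of 4 libraries, and at 7.5 h both control libraries of RAB4A lay below those of RAB4B. RAB4A was higher in 12 of 16 libraries, by 0.51 log2 (SD 0.672, exact permutation adjusted p = 0.0294), and the ratio fell by 0.145 log2 per hour (exact permutation adjusted p = 0.0339). The level call was lost without any of 6 libraries and the slope call without any of 8, with adjusted p up to 0.0589 and 0.125. RAB4A overlaps SPHAR on its strand.

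The rate of RAB7A fell more slowly than that of RAB7B. RAB7B rates in control were 0.633% and 0.844% before the chase, 0.693% and 0.588% after 1.5 h, 0.145% and 0.519% after 4.5 h, and 0.346% and 0.0511% after 7.5 h. In knockdown, RAB7B rates were 1.57% and 1.5% before the chase, 1.47% and 1.51% after 1.5 h, 0.951% and 0.644% after 4.5 h, and 0.325% and 0.548% after 7.5 h. RAB7B was the higher of the 2 at 0 h in all 4 libraries, and at 7.5 h the order differed among libraries. The ratio of RAB7A to RAB7B rose by 0.159 log2 per hour (exact permutation adjusted p = 0.0283). This call was lost without control 0 h replicate 2 (0.16, adjusted p = 0.0633), control 7.5 h replicate 2 (0.09, adjusted p = 0.181) or knockdown 7.5 h replicate 1 (0.15, adjusted p = 0.0518). The RAB8A to RAB8B ratio rose by 0.110 log2 per hour (exact permutation adjusted p = 0.0521). The other pairs, RAB2A with RAB2B, RAB3B with RAB3D, RAB11A with RAB11B and RAB27A with RAB27B, had exact permutation adjusted p values from 0.440 to 0.974 for the slope and of 0.441 to 0.642 for the level.

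**Figure D5:**
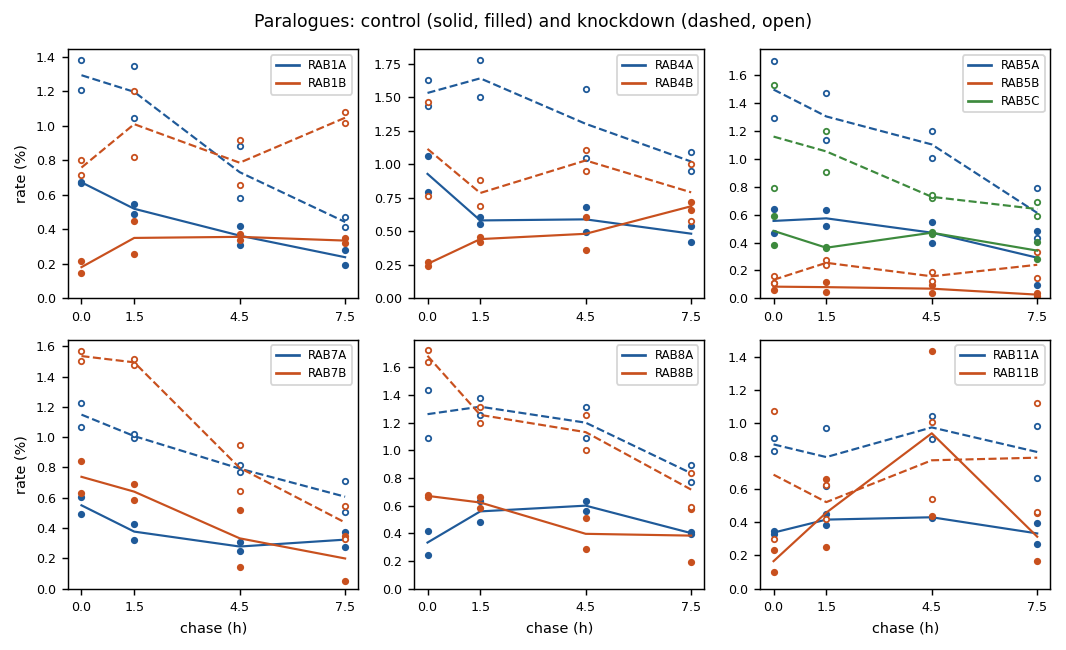
Conversion rates in percent (vertical axis) against hours of chase for 6 numbered subfamilies, 1 point per library with lines through the group means, solid and filled for control, dashed and open for knockdown. The RAB1A and RAB1B lines cross in both genotypes, and RAB5B stays under RAB5A and RAB5C in all 16 libraries.

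The GGACT letters were searched because they are a common form of the sequence around m6A, the mark that ALKBH5 removes, although m6A itself was not measured here. They occurred on the transcript strand of 39 members (88.6%), against 91.2% of genes, and in the first 500 bases after the stop of 12 of 38 members (31.6%), against 38.2%. In RAB8A, RAB13 and RAB11B the letters fall in the coding sequence, in the stretch that encodes part of the nucleotide-binding loop shared by RAB proteins, and RAB8A and RAB13 have the same 21 bases. They are printed because these 3 members hold the letters at a like place. Only the GGACT nearest the stop was placed in each transcript, so members with several sites may hold the letters there too. The 1 GGACT of RAB8B, the paralogue of RAB8A, lies in the 3′ UTR, 2636 bases after the stop. The 1 of RAB11A, the paralogue of RAB11B, lies 3625 bases after it. Capitals mark GGACT, in GRCh38.
RAB8A (chr19:16111938-16111958, + strand, coding): ctgatcggGGACTcgggggtg
RAB13 (chr1:153986180-153986200, − strand, coding): ctgatcggGGACTcgggggtg
RAB11B (chr19:8399868-8399888, + strand, coding): ctcatcggGGACTcaggcgtg
The density of GGACT in the transcript correlated with the genotype effect across the 44 members with Pearson's r of −0.0724 and Spearman's rho of 0.054, and with the control slope with −0.0496 and −0.0127. The T content of the transcript, a median of 27.6% in members and 25% over all genes, correlated with the control slope with −0.139 and −0.107 and with the knockdown slope with −0.310 and −0.213.

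The genes that switch, lipidate and read RABs were taken from lists of known regulators. Of 43 tested GEF genes 23 fell in control and 1 rose, and 23 fell in knockdown, against 34.4% and 37.9% of all genes for the falls. For rises the backgrounds were 3.45% of genes in control and 4.06% in knockdown. DENND4A, a GEF of RAB10, fell by 0.256 log2 per hour in control (adjusted p = 2.38e-06). RIN2, which acts on RAB5, fell by 0.346 (adjusted p = 7.87e-06), and DENND1A, which acts on RAB35, by 0.227 (adjusted p = 6.73e-05). TRAPPC5, a subunit of the TRAPP complexes that activate RAB1, rose by 0.127 (SE 0.0373, adjusted p = 0.0131). Of 31 GAP genes 18 fell in control and 20 in knockdown, and none rose in either. TBC1D5, a GAP of RAB7, fell by 0.241 (adjusted p = 6.20e-06), RAB3GAP1 by 0.268 (adjusted p = 7.02e-06) and RABGAP1L by 0.190 (adjusted p = 8.31e-06).

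The median control slopes of the GEF and GAP lists were −0.190 and −0.184 log2 per hour, against −0.109 over all genes and −0.125 over the RABs. The backgrounds for falling genes were again 34.4% in control and 37.9% in knockdown. Of 7 prenylation and extraction genes 3 fell in control: RABGGTB, a subunit of the enzyme that attaches the lipid anchor, by 0.271, GDI2, which extracts RABs from membranes, by 0.10, and CHML, a RAB escort protein, by 0.341. Of 46 effector genes 26 fell in control and 24 in knockdown, and RUFY1, OSBPL1A and RAB11FIP1 fell by 0.254, 0.266 and 0.363 in control. Relative to the common genotype shift, no GEF, GAP or prenylation gene passed, and of the 46 effectors 1 was higher and 1 lower. The backgrounds were 1.45% of genes higher and 4.59% lower. Dependence on single libraries and settings was not examined for the regulator genes. Among effectors RILPL2, which binds phosphorylated RAB8 and RAB10, stood 0.47 above (SE 0.131, adjusted p = 0.0471), and SYTL3, a RAB27 effector, below it (−1.0, SE 0.193, adjusted p = 0.00543). SYTL3 rates in control were 1.32% and 0.912% before the chase, 0.647% and 0.749% after 1.5 h, 0.553% and 0.639% after 4.5 h, and 0.441% and 0.835% after 7.5 h. In knockdown, SYTL3 rates were 1.12% and 0.816% before the chase, 0.67% and 0.925% after 1.5 h, 0.906% and 0.919% after 4.5 h, and 0.429% and 0.489% after 7.5 h. The SYTL3 genotypes overlapped at 0, 1.5 and 7.5 h, while RAB27A itself stood at −0.02 centred (SE 0.128, adjusted p = 0.946).

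Overlapping annotation limits single members. In GENCODE 29, 16 members share same-strand sequence with another gene and 26 lie opposite one, and the strand setting of the counting is not given in the sources used here. Beside those already named, RAB27A overlaps PIGBOS1, RAB8A overlaps HSH2D and RAB40C overlaps WFIKKN1 on the same strand. RAB11A lies opposite DENND4A and RAB1A opposite CEP68. Whether reads of these neighbours entered the rates was not tested.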

How the data were processed

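Per the labels, polyadenylated RNA of 16 THP-1 libraries was sequenced. The submitters' processing notes name CASAVA, HISAT2 2.1.0 and hg38; for annotation, strand setting, variant masking and the tool behind the rate, nothing is given in the sources used here. The authors deposited 1 fraction per gene and library, read from its values as the T-to-C conversion rate, and a single CPM column of an unnamed library, per the file headers, used for abundance only. Columns starting with C were taken as control and those starting with S as knockdown by elimination. Depth per rate is unknown, so no count test or interval was possible.

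Log2(rate in percent + 0.05) was modelled in limma 3.58.1 (R 4.3.3) using a variance trend in log2(CPM + 0.01), over the 16241 genes whose CPM reached 1 and whose rate exceeded 0 somewhere, and Benjamini-Hochberg adjustment over all of them at 0.05. Fold changes are on this scale, which understates those of low rates. The genotype effect had time as a factor; slopes had an intercept and slope per genotype. The tests were checked on simulated data. Members and lists were chosen with earlier results of these data known. Full values are given for the 5 most abundant members and for paralogue pairs that passed. They are also given for the 3 members of smallest p per direction in the centred genotype effect, centred slopes and slope difference. RAB39A and, among the regulators, SYTL3 are outside this rule and were added after their values were seen. Alternatives were other pseudocounts (0.02 and 0.1), CPM minimums, no variance trend, a replicate block and leaving out each library. The value of 1 lineage marker is not reported here.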

Additional observations from a re-analysis of the deposited data

How the results depend on the processing

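Of the leave-one-out values for named members and for paralogue pairs that passed, 440 kept direction and side of the threshold, 39 lost a call and 1 gained one. The 440 include results with no call to lose, such as every slope difference and most centred genotype effects, so they do not measure how stable the calls were. No gene-level pairing by replicate number was seen: deviations from group means correlated across genes at −0.0239 to 0.0396 over 28 pairs of groups, and 0 exceeded 0.1. Such correlations cannot show a shift common to all genes of a library, so pairing of that kind was not tested. With a replicate block, 35 members were higher in knockdown, all 35 shared with the unblocked fit, 22 control slopes passed with 21 shared, centred control slopes went from 9 to 10 calls with 9 shared, and 20 of 20 calls at 0 h and 18 of 19 at 7.5 h were shared. Members past the centred genotype test in either direction numbered 0 with a pseudocount of 0.02, 0 without the variance trend, 9 with no CPM minimum and 0 to 1 with each library left out. Members higher in knockdown at 0 h numbered 0 when centred and 10 to 22 with each library left out, and those at 7.5 h numbered 0 when centred and 11 to 21. With no CPM minimum the median used for centring covers many near-silent genes. Then 13 control slopes lay above typical and 0 were steeper, and 0 knockdown slopes were steeper. RAB29 turned to −0.15 and RAB2A to −0.49 in the centred genotype effect. Leaving out libraries gave 0 to 4 steeper knockdown slopes. Paralogue pairs past the slope test numbered 5 with a pseudocount of 0.1 and 1 to 6 with each library left out. The depth behind each rate is unknown, so counting error could not be set for any member.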

Other observations

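The 19 RAB genes under a CPM of 1 were not tested. RAB20, at a CPM of 0.741, had a rate above 0 in all 16 libraries, with a lowest value of 0.245%, a median of 0.732% and a highest of 2.04%. RAB33B, a Golgi RAB at a CPM of 0.794, had one in 15 libraries (median 0.837%), and RAB3C, of regulated exocytosis, in 14 (median 0.759%). RAB34 and RAB6C were at 0 in all 16 libraries. RAB19 and RAB6D reached 12.2% and 12.5% in single libraries, at CPM values of 0.397 and 0.0265.

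The time of the highest mean rate differed among the 44 members. In control, 25 members (56.8%) peaked at 0 h, against 48.1% of all tested genes, while 10 (22.7%) peaked after 1.5 h, against 22.6%, 7 (15.9%) after 4.5 h, against 14.3%, and 2 (4.55%) after 7.5 h, against 15%. In knockdown 28 (63.6%) peaked at 0 h, against 49.1%, 7 (15.9%) after 1.5 h, against 24.4%, 4 (9.09%) after 4.5 h, against 14%, and 5 (11.4%) after 7.5 h, against 12.5%.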
